A study of Mus musculus with 8 samples.

Results

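The voltage-gated calcium and sodium channel genes were followed in H3K27me3 profiles of mouse 3T3 cells, an immortalised fibroblast line, with and without overexpression of nicotinamide N-methyltransferase (NNMT). Members were the autosomal protein-coding RefSeq genes of build GRCm38 whose symbols name a calcium channel alpha1, alpha2delta, beta or gamma subunit or a sodium channel alpha or beta subunit. There were 39 of them among 20661 autosomal protein-coding genes, 25 calcium channel genes and 14 sodium channel genes. X-linked members were left out by this rule. Regions from the authors' deposited table were assigned to a gene where they overlapped its annotated span extended by 2 kb on both sides, which gave 1522 of the 263973 listed autosomal regions. No region reached 2 members.

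Chromatin immunoprecipitation and sequencing of H3K27me3, trimethylation of lysine 27 on histone H3, gave 3 libraries of cells with a control construct and 3 of cells with an NNMT overexpression construct. All cells grew for 48 h in medium made up to 10 µM methionine with 10% dialyzed serum, were fixed with 1% formaldehyde and had their chromatin cut with micrococcal nuclease. The labels also give 1 input library per construct, and name neither the promoter of the construct nor the number of clones. The labels call the libraries biological replicates, and no spread beyond that between these libraries was measured. The deposited table has no header, and no source used here says which set of 3 libraries carried NNMT: set 1 is the set listed first and set 2 the set listed second, and no direction below is tied to NNMT. The deposited values of a region are whole numbers per library, and no source used here gives their scaling or any use of the inputs. Unequal DNA dosage and unequal marking therefore cannot be told apart, and neither can fewer cells with the mark and less mark per cell. Every region had been listed for a difference between the sets, with p at most 0.1 in the authors' deposited table, so no test was run on the regions and the p was not used. A ratio is (set sum + 1)/(other set sum + 1), and its error is the lowest and highest ratio among the 9 pairings of one library per set. Separated means that the 3 values of one set all lie above those of the other.

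H3K27me3 is laid down by Polycomb repressive complex 2 and marks genes held silent, among them many genes of other lineages. Voltage-gated calcium and sodium channels open on depolarisation of the membrane and carry the currents behind action potentials, transmitter release and the coupling of excitation to contraction. Each is built around a pore-forming alpha subunit, with which auxiliary subunits associate: alpha2delta, beta and, in muscle, gamma subunits for calcium channels, and beta subunits for sodium channels. They are characteristic of neurons, muscle and endocrine cells. In the table, 0 of 12 fibroblast markers carried a listed region, against 3 of 7 neuronal, 5 of 6 skeletal muscle, 3 of 5 cardiac muscle, 2 of 4 epithelial and 3 of 3 blood cell markers (32.7% of all genes). A table of regions that differ does not show where the mark is present in both sets, so the cell type cannot be checked further from it.

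The channel genes carried regions in both directions, and their summed values lay close to the shift of the whole table. Of the 39 members, 32 carried a listed region, against 32.7% of all autosomal protein-coding genes. Regions with the higher value in set 1 occurred in 29 members (27.8% of all genes), and those with the higher value in set 2 in 26 (19.1%). Both kinds occurred in 23 members (14.1% of all genes). The members' spans had a median of 110 kb, against 17.5 kb for all genes. Among genes of 100 kb or longer 48.0% carried a region, as did 17 of the 20 members of that length. Among shorter genes it was 30.8%, and 15 of 19 members. Set 1 had the higher value in 939 of the 1522 regions (61.7%, background 59.2%), and set 2 in 583 (background 40.8%). Summed over members, the set 1 libraries reached 293439, 296965 and 285142, and the set 2 libraries 251169, 262233 and 249970. All 3 set 1 sums were the higher, by 1.15-fold (1.09 to 1.19 over library pairs), and the sums of all listed autosomal regions differed by 1.14-fold. On the log2 scale these ratios were 0.20 and 0.19. Relative to that shift of 0.19, 14 of the 32 members with regions lay towards set 1 and 18 towards set 2. The median log2 ratio per gene was 0.12 over these members and 0.36 over all genes with regions. The members thus lay further towards set 2 than genes with regions in general.

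The spread between libraries was read from the separated calls. Of the member regions 907 were separated, or 59.6%, against 65% of all autosomal regions: 601 with set 1 higher (background 40.2%) and 306 with set 2 higher (24.8%). A ratio of 2-fold or more was reached by 280 regions higher in set 1 (background 21.9%) and 110 higher in set 2 (13%). Summed per gene, 24 of the 32 members with regions were separated, against 81.2% of all genes with regions. Of these, 17 were higher in set 1 (background 58.7%) and 7 in set 2 (22.5%). Counting also the members whose libraries overlapped, 22 of 32 had the higher sum in set 1, against 69% of genes with regions. Regions covered 20.6% of the members' spans and flanks, and lay at 24.1 per 100 kb, against 10.3 per 100 kb over all genes.

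**Figure D1:**
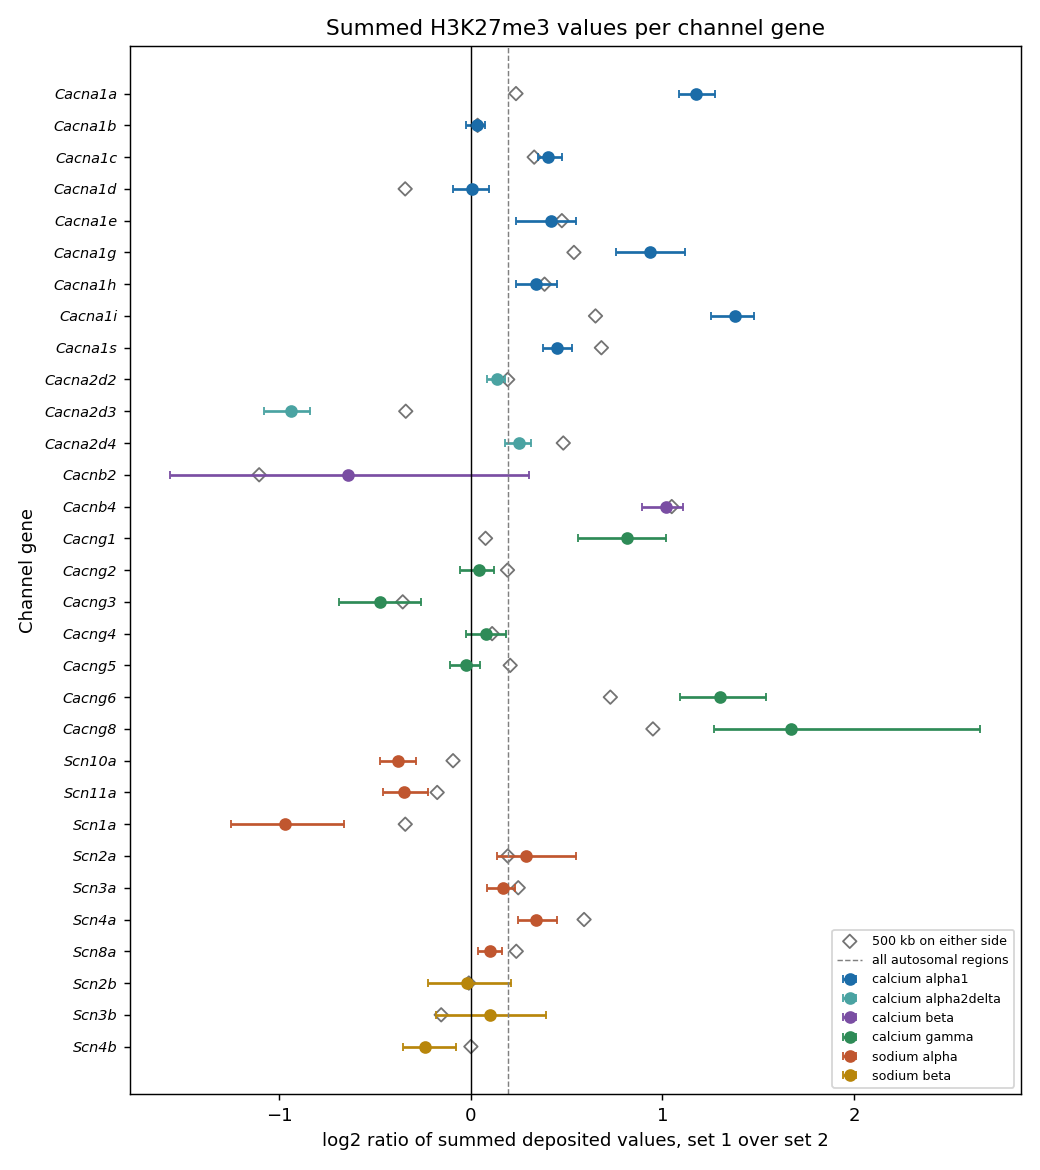
Log2 ratio of summed deposited values, set 1 over set 2, for 31 channel genes with listed regions, coloured by subunit class, with bars for the range over the 9 library pairs. Open diamonds give the regions in the 500 kb on either side, and the dashed line all autosomal regions (0.19). Cacna1a, Cacnb4, Cacna1i, Cacng6 and Cacng8 lie beyond 1, and Cacna2d3 and Scn1a near -1.

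Sequence around the starts showed which promoters the listed regions reached. RefSeq promoter windows (GRCm38.p6, 250 bases before to 50 after each start) were found for 29 of the 39 members, with 40 windows in all. A listed region overlapped 10 of these windows (25%), against 9.3% of 20084 windows of autosomal protein-coding genes. The shares here and below are over windows of genes with and without regions. Members carried a region more often, at 82.1% against 32.7% of all genes, and the part of this in the window shares was not tested. The letters searched were CG, which read the same on both strands and overlap no other motif here; 95.6% of all windows hold at least 1. The 10 reached windows held 2 to 12 CG, with a median of 6.5. The other 30 held 3 to 63, with a median of 18.5. Over the windows of all autosomal protein-coding genes the medians were 5 and 15, so this split is not particular to the members. Of the 15 member windows with 20 or more CG, 0 were reached, against 2.0% of 7450 such windows of all genes. Of the 20 with 9 or fewer, 7 were reached (17.3% of all such windows), and of the 5 with 10 to 19, 3 were (6.19%).

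Windows of Cacna1c, Cacnb4 and Scn8a are printed in pairs, since each of these genes has a CG-rich start that no listed region reached and a start with fewer CG that one did. Other windows of these genes do not all follow that: a Cacna1c window with 7 CG was not reached either, with its nearest region 175824 bases from the start site. Cacna1s and Scn10a are printed as members reached at the 1 start listed for them. Letters run 5′ to 3′ with CG in capitals.
Cacna1c window not reached (chr6:119108446-119108745, minus strand): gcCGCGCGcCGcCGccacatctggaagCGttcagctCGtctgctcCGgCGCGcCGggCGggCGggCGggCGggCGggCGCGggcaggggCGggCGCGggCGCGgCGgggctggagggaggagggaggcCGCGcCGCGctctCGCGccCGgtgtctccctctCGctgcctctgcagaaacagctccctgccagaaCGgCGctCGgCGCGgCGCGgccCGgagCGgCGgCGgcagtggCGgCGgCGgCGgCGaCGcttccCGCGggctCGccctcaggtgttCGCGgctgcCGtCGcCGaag
Cacna1c window reached (chr6:119196360-119196659, minus strand): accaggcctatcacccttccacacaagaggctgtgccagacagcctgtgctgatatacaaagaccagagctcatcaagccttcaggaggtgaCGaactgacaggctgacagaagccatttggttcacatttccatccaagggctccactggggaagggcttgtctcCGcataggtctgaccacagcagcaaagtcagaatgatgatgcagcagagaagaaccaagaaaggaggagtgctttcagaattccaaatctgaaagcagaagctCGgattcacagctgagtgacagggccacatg
Cacnb4 window not reached (chr2:52676094-52676393, minus strand): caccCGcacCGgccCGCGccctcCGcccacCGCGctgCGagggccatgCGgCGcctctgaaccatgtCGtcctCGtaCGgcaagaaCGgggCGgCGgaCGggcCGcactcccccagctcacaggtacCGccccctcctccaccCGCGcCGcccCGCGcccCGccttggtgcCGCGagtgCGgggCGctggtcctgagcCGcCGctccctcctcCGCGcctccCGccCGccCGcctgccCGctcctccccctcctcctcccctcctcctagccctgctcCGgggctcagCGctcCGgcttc
Cacnb4 window reached (chr2:52558562-52558861, minus strand): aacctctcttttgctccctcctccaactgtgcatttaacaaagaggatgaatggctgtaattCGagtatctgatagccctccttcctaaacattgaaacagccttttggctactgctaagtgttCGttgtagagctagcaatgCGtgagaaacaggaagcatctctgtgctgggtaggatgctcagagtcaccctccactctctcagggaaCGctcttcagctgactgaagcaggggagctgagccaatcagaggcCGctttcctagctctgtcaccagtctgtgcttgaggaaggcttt
Scn8a window not reached (chr15:100870395-100870694, plus strand): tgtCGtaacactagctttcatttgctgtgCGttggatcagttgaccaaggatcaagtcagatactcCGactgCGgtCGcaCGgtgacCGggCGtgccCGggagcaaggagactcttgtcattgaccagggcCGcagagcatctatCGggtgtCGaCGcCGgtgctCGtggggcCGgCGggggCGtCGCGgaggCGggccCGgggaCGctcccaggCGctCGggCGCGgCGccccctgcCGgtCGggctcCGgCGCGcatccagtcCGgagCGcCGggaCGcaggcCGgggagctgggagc
Scn8a window reached (chr15:100936021-100936320, plus strand): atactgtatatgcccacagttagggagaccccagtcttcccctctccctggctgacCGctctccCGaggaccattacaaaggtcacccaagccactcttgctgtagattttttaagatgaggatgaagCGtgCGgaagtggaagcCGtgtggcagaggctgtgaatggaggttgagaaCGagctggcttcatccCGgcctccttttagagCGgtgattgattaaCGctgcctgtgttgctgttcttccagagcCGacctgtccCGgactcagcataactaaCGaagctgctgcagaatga
Cacna1s window reached (chr1:136052561-136052860, plus strand): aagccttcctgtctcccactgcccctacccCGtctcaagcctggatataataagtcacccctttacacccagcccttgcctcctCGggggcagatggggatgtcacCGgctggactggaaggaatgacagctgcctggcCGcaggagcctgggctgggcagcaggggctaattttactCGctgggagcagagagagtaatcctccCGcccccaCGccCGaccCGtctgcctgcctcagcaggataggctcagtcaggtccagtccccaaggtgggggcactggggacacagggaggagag
Scn10a window reached (chr9:119718983-119719282, minus strand): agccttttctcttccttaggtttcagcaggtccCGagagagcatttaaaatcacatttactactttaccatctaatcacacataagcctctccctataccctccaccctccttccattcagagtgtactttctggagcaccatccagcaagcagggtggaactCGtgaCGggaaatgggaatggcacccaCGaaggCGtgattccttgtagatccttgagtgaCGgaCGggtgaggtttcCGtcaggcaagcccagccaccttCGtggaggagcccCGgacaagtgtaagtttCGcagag

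The reached window of Cacna1c, with 3 CG, overlapped a region that the authors' deposited table lists with 213, 219 and 214 against 172, 142 and 179, set 1 first, a 1.31-fold difference. The Cacna1c window with 57 CG, 88.9 kb inside the annotated span, had its nearest region 3206 bases from the start site. Such a CG count is matched by 0.18% of all windows. For Cacnb4 the window with 5 CG, 118 kb inside the span, overlapped a region with 250, 259 and 275 against 102, 92 and 105 (2.62-fold). The outer start of Cacnb4, with 40 CG, had no region within 8693 bases. The inner window of Scn8a, with 12 CG, met a region with overlapping values of 195, 250 and 221 against 131, 207 and 96. Its outer window, with 38 CG, had its start site 2406 bases from the nearest region. At the Cacna1s start, with 9 CG, the values overlapped, with 60, 68 and 61 against 99, 52 and 100. The region over the Scn10a start, with 11 CG, was separated, with 123, 122 and 146 against 159, 186 and 188 (1.36-fold higher in set 2). CG-rich windows that were not reached also included those of Cacna1d (63), Cacna2d2 (43), Cacna2d1 (42), Cacna2d3 (41) and Cacna1b (35). The starts were not empty of regions at a wider scale. Within 2 kb of the outer start, listed regions covered 25.3% of the sequence in the 23 members of 10 kb or longer with a listed start and a region, against 24.5% around the far end and 21.3% of their bodies. In all such genes these shares were 25.1%, 21.8% and 17.8%.

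**Figure D2:**
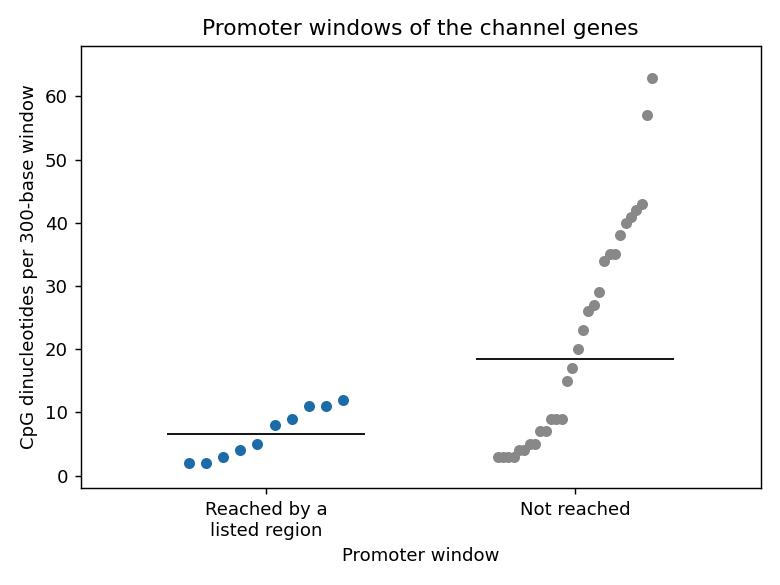
Number of CG dinucleotides in each of the 40 promoter windows of the channel genes, split by whether a listed region overlaps the window; points are windows and horizontal lines are medians (6.5 and 18.5). The 10 reached windows hold at most 12, and those not reached hold up to 63. Over the windows of all autosomal protein-coding genes the medians are 5 and 15.

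All 9 pore-forming calcium channel genes carried regions, and the sums of all 9 were at or above 1-fold towards set 1. Of all genes with regions, 69% had the higher sum in set 1. Of the 644 regions of these 9 genes, 457 favoured set 1 (71.0%, background 59.2%) and 187 set 2. Their summed values were 1.26-fold higher in set 1 (1.18 to 1.32 over pairs), against 1.14-fold over all autosomal regions. The sets were separated at 7 of the genes (81.2% of all genes with regions), among them Cacna1g by regions of its flank alone. They overlapped at Cacna1b and Cacna1d. With the sets rescaled to equal sums both of these turned towards set 2, at log2 ratios of -0.16 and -0.19.

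Cacna1a, which encodes the P/Q-type channel of presynaptic terminals (chromosome 8, 84338631 to 84640251), was higher in set 1 along its length. All 109 of its regions were higher in set 1, 92 of them separated and 81 at 2-fold or more. Its library sums were 14956, 15221 and 14479 against 6286, 6706 and 6809, set 1 first here and below, a ratio of 2.26 (2.13 to 2.42). Every set 1 library was thus more than 2-fold above every set 2 library. Regions in the 500 kb on either side differed less, at a log2 ratio of 0.24 against 1.17 in the gene, and 73.6% of them were higher in set 1. Among all genes with 100 or more regions, 35 of 171 held regions of 1 direction only.

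Cacna1e, Cacna1b and Cacna1d, for other high-voltage channels, differed less than Cacna1a. Cacna1e, the R-type channel gene (chromosome 1, 154390806 to 154884785), had 98 of its 126 regions higher in set 1. Its sums were 22032, 21899 and 20401 against 15816, 17315 and 15076, or 1.33-fold (1.18 to 1.46). Its largest region in the authors' deposited table, of 10650 bp, held 2441, 2728 and 2540 against 1957, 2005 and 1761. Cacna1b, which encodes the N-type channel of nerve terminals (chromosome 2, 24603860 to 24763200), was covered by listed regions over 51.6% of its length, 43 higher in set 1 and 46 in set 2. Its sums of 16399, 16445 and 16451 overlapped those of 15603, 16685 and 15971. Cacna1d, an L-type channel gene of endocrine cells and the cardiac pacemaker (chromosome 14, 30039941 to 30491156), held the most regions of any member, 94 higher in set 1 and 99 in set 2. Its sums of 26046, 27282 and 25267 against 25535, 26982 and 25792 overlapped as well.

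Within Cacna1b and Cacna1d the direction changed along the gene. Each gene with its flanks was divided into 4 equal segments from the start, taking the strand from the promoter table. In Cacna1d the log2 ratios from the start to the far end were 0.27, 0.03, -0.02 and -0.39. At the start 34 regions favoured set 1 and 11 set 2, and at the far end 8 and 32. In Cacna1b they were 0.26, 0.08, 0.02 and -0.29, with 18 against 6 regions at the start and 5 against 19 at the far end. Cacna1e went the same way without a change of sign, from 0.48 at the start to 0.13 at the far end. A sum near 1-fold over Cacna1b and Cacna1d thus combined segments of opposite direction. Relative to the shift of 0.19 of the whole table, only the segment at the start lay towards set 1 in these genes. The far end of Cacna1e also lay below that shift.

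**Figure D3:**
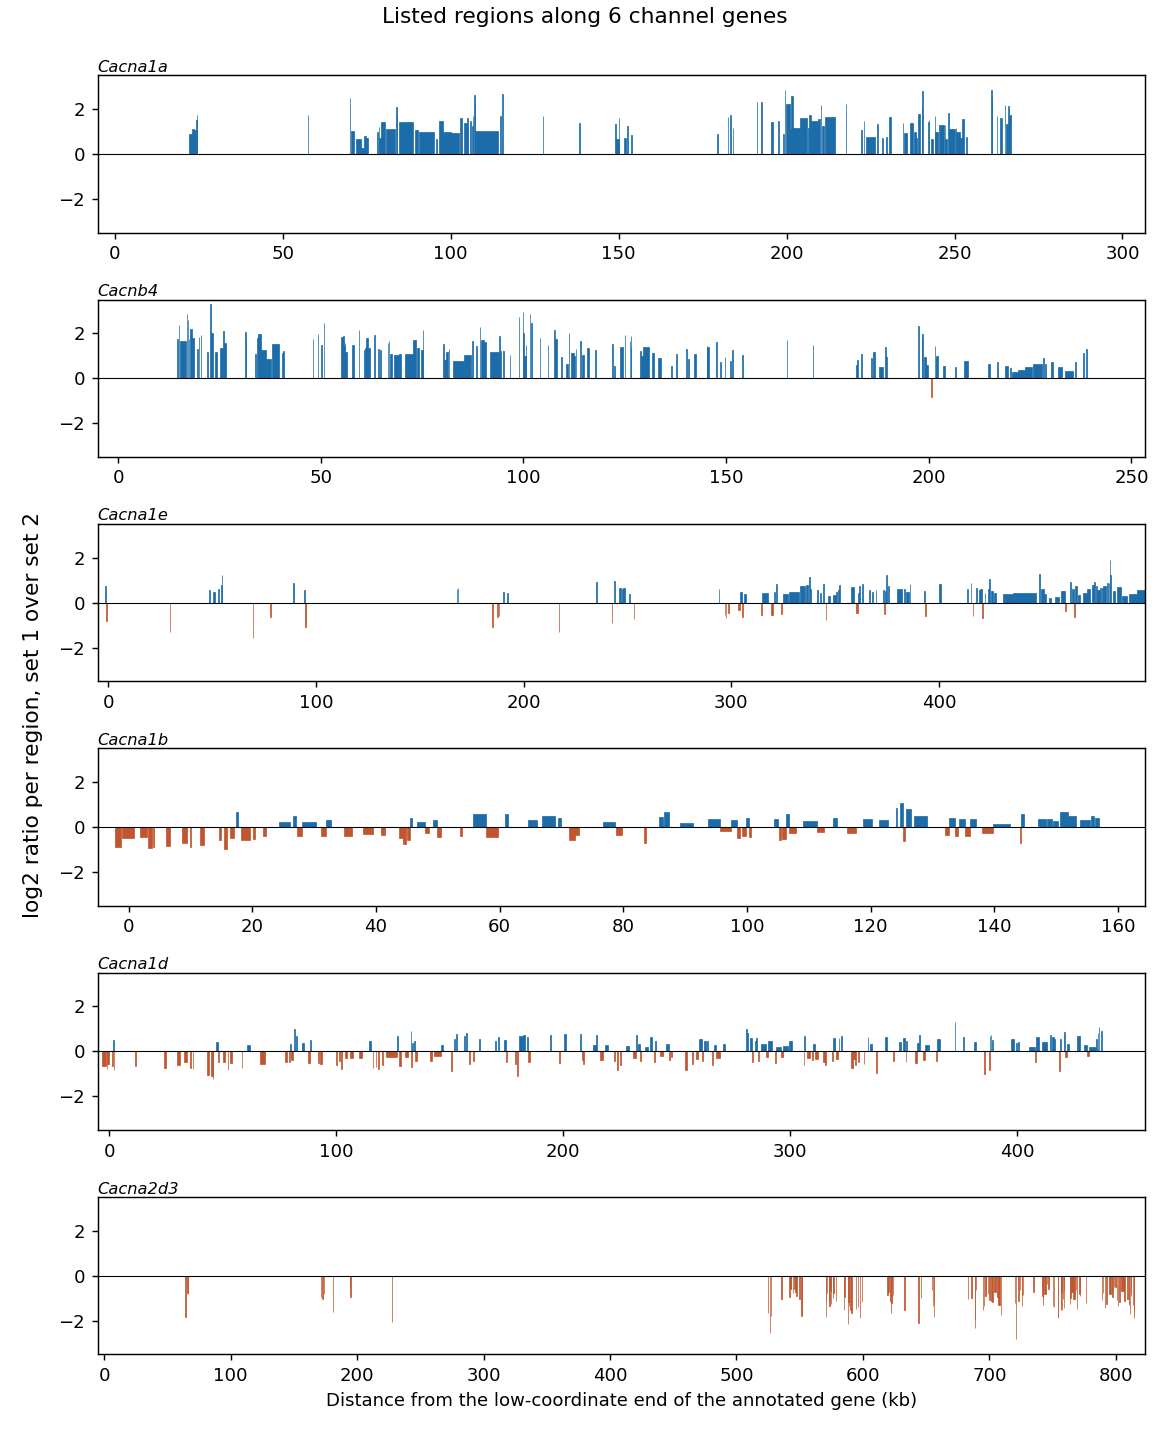
Log2 ratio of each listed region, set 1 over set 2, along 6 channel genes, against the distance in kb from the end of the annotated span with the lower coordinate; bar width is region length, blue is higher in set 1 and orange higher in set 2. Cacna1a is blue throughout (109 of 109 regions), Cacna2d3 orange throughout (135 of 135), and Cacna1b and Cacna1d pass from mostly orange to mostly blue.

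The L-type genes of muscle were both higher in set 1, with different coverage. Cacna1s, the voltage sensor of skeletal muscle (chromosome 1, 136052806 to 136119822), had 78.7% of its span and flanks covered and sums of 14329, 14659 and 14165 against 10520, 10890 and 10157. The ratio was 1.37 (1.3 to 1.44), with 29 of 32 regions higher in set 1. Cacna1c, the L-type channel gene of heart and smooth muscle (chromosome 6, 118587240 to 119197384), was covered over 9.08%. It carried its 50 regions only in the segment nearest its start, and 0 in the other 3. These summed to 14605, 15483 and 14729 against 11333, 11445 and 11125, or 1.32-fold (1.28 to 1.39), and 43 of the 50 were higher in set 1. The sets did not overlap at either gene.

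The 3 genes of T-type channels, which open at low voltages, differed in how much of them was listed. Cacna1h (chromosome 17, 25374285 to 25436334) was covered over 78.7% and stood at 1.27-fold (1.18 to 1.37), with sums of 15417, 14852 and 14705 against 11701, 12497 and 11292. Cacna1i (chromosome 15, 80287238 to 80398292) carried 11 regions over 2.88% of its length, all higher in set 1. Its sums were 682, 637 and 690 against 267, 247 and 259, a ratio of 2.6 (2.38 to 2.79). Of the 171 regions in the 500 kb on either side 94.2% were higher in set 1, at a log2 ratio of 0.65. Cacna1g (chromosome 11, 94408391 to 94474400) was a member by its flank alone. Its 3 regions lay outside the annotated span, 0 inside it, and were 1.91-fold higher in set 1 (1.69 to 2.17).

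The alpha2delta genes encode extracellular subunits that promote the surface delivery of calcium channels, and 3 of the 4 carried regions. Cacna2d3 (chromosome 14, 28904943 to 29722775) ran opposite to Cacna1a: all 135 of its regions were higher in set 2, 101 of them separated and 82 at 2-fold or more. Its sums were 4604, 4682 and 4108 against 8659, 8676 and 8365, a ratio of 1.92 towards set 2 (1.79 to 2.11). Of these regions 90 lay in the segment nearest the start, and only 5.91% of the gene was covered. Cacna1d lies 317 kb away on the same chromosome, and the end of Cacna1d nearer to Cacna2d3 was the one with 32 of 40 regions higher in set 2.

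Cacna2d2 (chromosome 9, 107399733 to 107529346), a target of the gabapentinoid drugs, stood at 1.1-fold in set 1 (1.06 to 1.13), with 61.5% covered and sums of 20442, 20340 and 19829 against 18068, 18673 and 18429. Cacna2d4, the photoreceptor form (chromosome 6, 119236524 to 119352407), lies 39.1 kb from the start of Cacna1c and was covered over 71.0%. It stood at 1.19-fold (1.13 to 1.24), with sums of 26656, 27221 and 26500 against 21873, 23420 and 22305. Its longest region in the authors' deposited table, of 7250 bp, held 2072, 1983 and 1975 against 1087, 1495 and 1154, and its region with the largest values, of 6750 bp, held 2319, 2489 and 2377 against 1996, 2163 and 2099. Both genes were separated, Cacna2d2 below and Cacna2d4 above the shift of the whole table. With the sets rescaled to equal sums Cacna2d2 turned towards set 2, at a log2 ratio of -0.057. Cacna2d1, the widely expressed form (chromosome 5, 15934264 to 16374511), carried 0 regions, while of the 129 regions in the 500 kb on either side 4.65% were higher in set 1.

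Of the beta genes, whose cytoplasmic products bind the pore-forming subunit, Cacnb4 held nearly all the signal. Cacnb4 (chromosome 2, 52428320 to 52676609) is expressed mainly in brain. Of its 156 regions all but 1 favoured set 1, with 125 separated and 115 at 2-fold or more. The sums were 12145, 12540 and 12184 against 6536, 5815 and 5826, or 2.03-fold (1.86 to 2.16). The ratio was highest at the far end of Cacnb4, with a log2 ratio of 1.52 in the last of the 4 segments and 0.56 in that at the start. Its surroundings went the same way, with all 98 regions higher in set 1 and a log2 ratio of 1.05. Cacnb2, of heart and brain, carried 1 region of 300 bp with overlapping values of 33, 36 and 27 against 82, 39 and 29. Without the first set 2 library its log2 ratio went from -0.64 to -0.087. Cacnb1, of skeletal muscle, and Cacnb3 carried 0.

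Of the gamma genes 7 of 8 carried regions, and their sums together did not separate the sets (1.05-fold, 0.994 to 1.09, and a log2 ratio of -0.12 after rescaling the sets). Cacng2, which encodes stargazin, an auxiliary subunit of AMPA-type glutamate receptors (chromosome 15, 77991919 to 78120220), was covered over 72.0%, with 33 of its 56 regions higher in set 1. Its sums of 29376, 29767 and 28188 overlapped those of 27986, 29363 and 27386. The longest region of any member lay here, 12400 bp, and in the authors' deposited table it was higher in set 2, with 4325, 4255 and 4172 against 4614, 4934 and 4687. That difference of 1.12-fold (1.07 to 1.18 over pairs) was separated, although the gene was not.

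The other receptor-associated gamma genes ranged widely. On chromosome 11, Cacng4 (1.05-fold, 0.982 to 1.14) and Cacng5 (1.02-fold towards set 2, 0.967 to 1.08) overlapped between the sets. Their neighbour Cacng1, the skeletal muscle gamma subunit (107703218 to 107716476), did not: its 13 regions were all higher in set 1, with sums of 1252, 1123 and 1195 against 762, 652 and 617 (1.76-fold, 1.47 to 2.03). Along Cacng4 the log2 ratio went from 0.49 in the segment next to Cacng1 to -0.56 in the opposite one. On chromosome 7, Cacng6, also of skeletal muscle (3423588 to 3435667), had 9 regions, all higher in set 1 and separated, with sums of 1062, 1205 and 1008 against 440, 414 and 473 (2.47-fold, 2.13 to 2.91). Cacng8 next to it was reached by 3 regions in its flank only, whose low values summed to 81, 76 and 81 against 31, 12 and 31 (3.19-fold, 2.41 to 6.31). In the 500 kb on either side, 97.7% of 86 regions around Cacng6 and 98.8% of 85 around Cacng8 were also higher in set 1. Their log2 ratios were 0.73 and 0.95, and each of these surroundings includes the other gene. Cacng7 in the same cluster carried 0. Cacng3, on another part of chromosome 7, had 8 of its 10 regions higher in set 2, with sums of 350, 336 and 327 against 460, 528 and 419 (1.39-fold, 1.2 to 1.61).

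**Figure D4:**
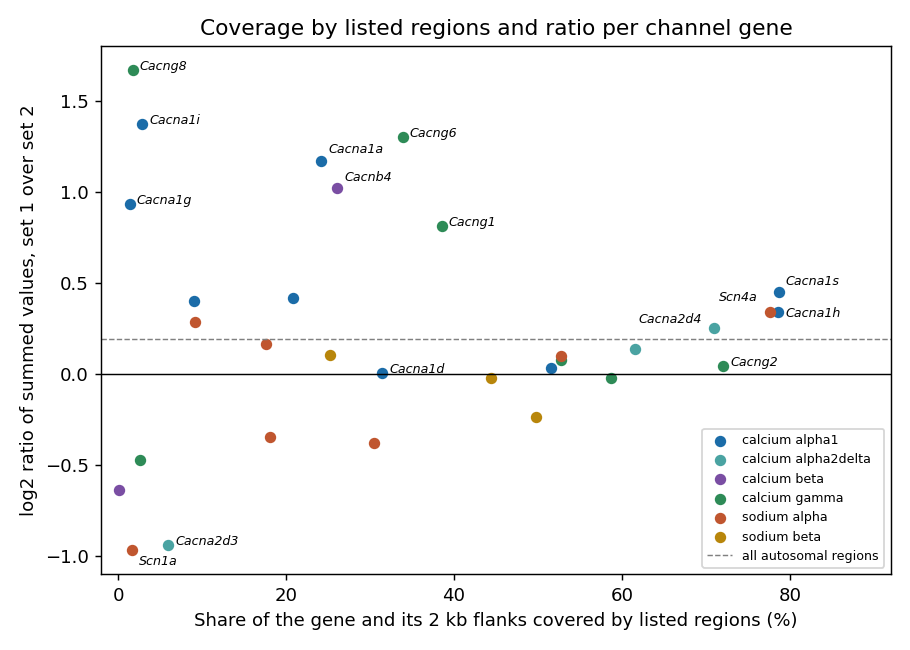
Share of each channel gene and its 2 kb flanks covered by listed regions (x axis, %) against the log2 ratio of its summed values, set 1 over set 2, for 31 members with regions, coloured by class. The 10 members covered by 50% or more lie between -0.02 and 0.45, and the ratios beyond 0.5 in either direction belong to members covered less.

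Coverage and ratio were related across members. Over the 10 members covered by 50% or more the median absolute log2 ratio was 0.12, with the highest at 0.45 (Cacna1s). Over the other 22 it was 0.44. Spearman's rho between coverage and the absolute log2 ratio was -0.56 over 32 members, which share the same 6 libraries. Between the mean value per kb of listed region and the absolute log2 ratio it was -0.69. Both are given as descriptions. The regions had been listed for a difference between the sets, and the part of that choice in both relations was not tested. Neighbouring regions that touched without a gap were 12.6% of neighbours within members and 6.43% over all autosomes. All 188 such pairs in members differed in direction, as did all 16985 on the autosomes. Touching autosomal regions of 1 direction therefore do not occur in the table.

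The sodium channel alpha genes went in both directions. As a class, 8 of 10 carried regions, with 134 of 283 higher in set 1, and the class sums did not separate (1.02-fold, 0.976 to 1.06, and a log2 ratio of -0.16 after rescaling the sets). All 8 members were separated one by one, 4 in each direction. Of all genes with regions 81.2% were separated, 58.7% with set 1 higher and 22.5% with set 2 higher.

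The sensory neuron genes on chromosome 9 were both higher in set 2. Scn10a (119608456 to 119719322) had 37 of its 43 regions higher in set 2 and sums of 5423, 5498 and 5300 against 6706, 7350 and 7043 (1.3-fold, 1.22 to 1.39). Scn11a (119753763 to 119825456) had 1940, 1876 and 1800 against 2474, 2401 and 2269 (1.27-fold, 1.17 to 1.37). Their surroundings, in which each includes the other, lay at log2 ratios of -0.09 and -0.18. In the authors' deposited table the largest region of Scn10a, 5700 bp, held 1069, 961 and 1013 against 1250, 1276 and 1233.

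The brain cluster on chromosome 2 changed direction and then ran out of listed regions. Scn3a, of the embryonic brain (65457118 to 65567591), and Scn2a, of excitatory neurons (65620764 to 65767447), were 1.12-fold (1.06 to 1.17) and 1.22-fold (1.1 to 1.46) higher in set 1. Scn3a turned to a log2 ratio of -0.025 with the sets rescaled to equal sums. Scn2a had sums of 2500, 2826 and 2551 against 2277, 2249 and 1930. At Scn1a, a gene of inhibitory neurons mutated in Dravet syndrome in patients (66270781 to 66440837), all 8 regions were higher in set 2. Its sums were low, 247, 247 and 222 against 529, 483 and 392, or 1.96-fold towards set 2 (1.58 to 2.38), over 1.61% of the gene. Scn9a, of pain-sensing neurons, and Scn7a, a salt-sensing relative, followed with 0 regions each. In the 500 kb on either side of these lay 11 and 10 regions, and 0 of them were higher in set 1. Both windows include Scn1a, so its 8 regions are counted again in each.

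Scn4a and Scn8a were covered over most of their length. Scn4a, the skeletal muscle channel gene (chromosome 11, 106317545 to 106365559), was covered over 77.6% and stood at 1.27-fold in set 1 (1.18 to 1.37), with sums of 10781, 10084 and 10539 against 7887, 8367 and 8516. Its largest region in the authors' deposited table, of 7400 bp, held 1884, 1718 and 1474 against 1133, 1306 and 1239. Scn8a, which is widespread in neurons (chromosome 15, 100869863 to 101045938), was covered over 52.8% and had 57 of 91 regions higher in set 1. Its sums of 22818, 23720 and 22193 against 21308, 21655 and 21208 were just separated (1.07-fold, 1.02 to 1.12), below the shift of the whole table, and turned to a log2 ratio of -0.093 with the sets rescaled. The largest region of Scn8a, 5650 bp, was higher in set 2, with 1602, 1426 and 1376 against 1769, 1682 and 1644.

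The sodium channel beta genes encode single-pass membrane proteins of the immunoglobulin family that modulate the pore and act in cell adhesion. Scn4b (chromosome 9, 45138624 to 45154155) had 7 of 8 regions higher in set 2 and sums of 1996, 2248 and 2089 against 2541, 2554 and 2371, or 1.18-fold towards set 2 (1.05 to 1.28). Scn2b, its neighbour (45117876 to 45130070), overlapped between the sets, with 1550, 1511 and 1355 against 1563, 1580 and 1339. Scn3b overlapped too, with 1094, 1124 and 927 against 1022, 857 and 1050. Of the 3 genes with regions only Scn4b was separated, against 81.2% of all genes with regions.

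**Figure D5:**
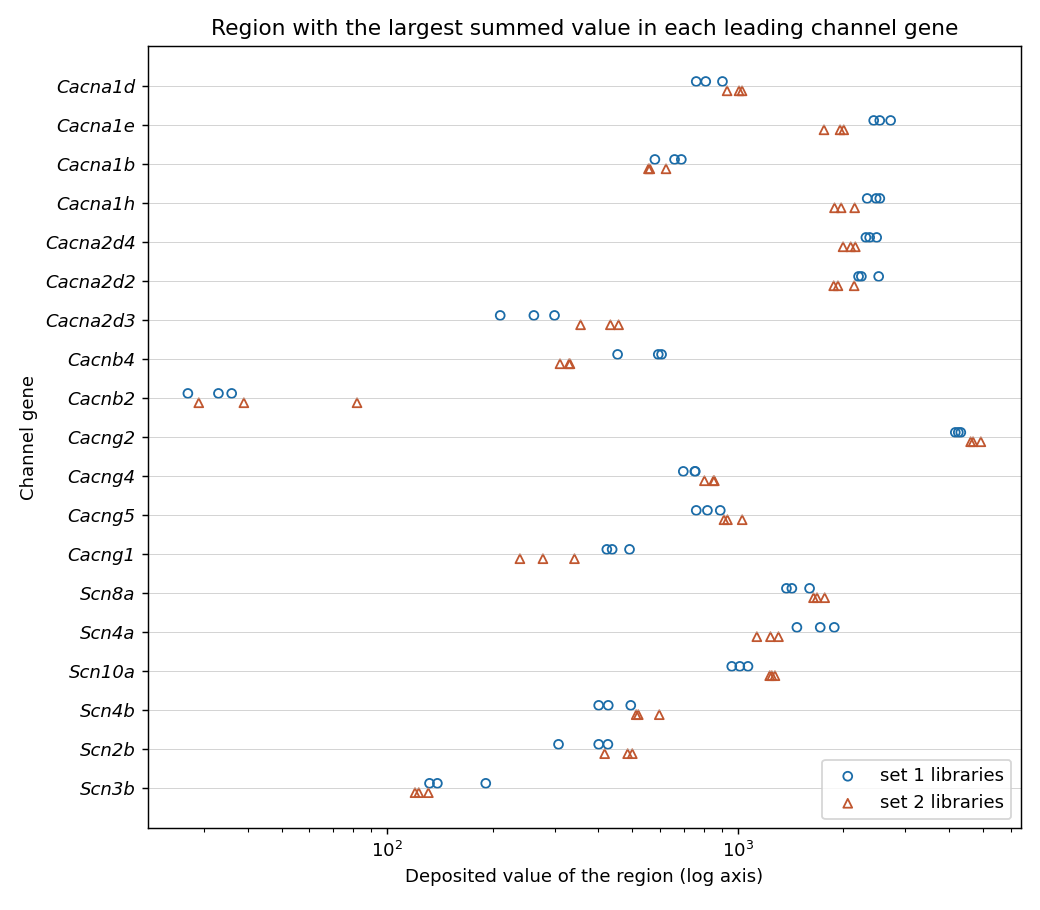
Deposited value per library (log axis) of the region with the largest summed value in each of 19 leading channel genes, with circles for the 3 set 1 libraries and triangles for the 3 set 2 libraries. Set 1 is higher in 9 of the 19 regions and set 2 in 10, and the sets overlap at 3 (Cacna1b, Cacnb2 and Scn2b).

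Regions were also ranked by ratio. Among member regions whose 3 higher values were all at least 20, the 6 leading ones per direction were 150 to 300 bp long. Large ratios and separation follow from that choice, so these regions are given as a description. In set 1 they lay in Cacna1a (3), Cacna1c (2) and Cacnb4. The leading one, in Cacna1c (chromosome 6, 119113501 to 119113650), is listed in the authors' deposited table with 39, 31 and 23 against 1, 0 and 6 (11.8-fold, 3.43 to 40 over pairs). A Cacna1a region (chromosome 8, 84579051 to 84579350) held 80, 46 and 59 against 11, 6 and 9 (6.89-fold, 3.92 to 11.6 over pairs). In set 2, 5 of the 6 lay in Cacna2d3. The leading one (chromosome 14, 29626051 to 29626250) held 6, 3 and 7 against 60, 35 and 23, 7.0-fold (3.0 to 15.2 over pairs). Of the 23 member regions of 5 kb or longer, 19 were higher in set 1 (82.6%, against 84.4% of all such regions), with ratios that stayed below 2-fold among the 10 longest.

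The direction of a member was set beside that of its surroundings. The sums of 28 of the 32 members (87.5%) pointed the same way as the regions in the 500 kb on either side, against 80.7% of 6752 genes with regions in both. Relative to the shift of the whole table it was 27 of 32, against 76.3%, so the members lay near the share of all genes. In the first count 4 pointed the other way: Cacna1d, Cacng5, Scn3b and Scn4b. At 3 of these 4 the sets overlapped. At Scn4b, where they did not, the surroundings were almost level, at a log2 ratio of 0.00043. Pearson's r between the log2 ratios of gene and surroundings was 0.81 and Spearman's rho 0.87 over 32 members, as a description, since genes in a cluster share surroundings and all share the 6 libraries.

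Genes whose products act with these channels were taken as a list of 53 symbols, of which 52 were autosomal. Of these, 27 carried a region (51.9%, against 32.7% of all genes and 48.0% of genes of 100 kb or longer). Gene length was not matched in these counts. Regions favouring set 1 occurred in 25 (27.8% of all genes) and regions favouring set 2 in 17 (19.1%). The sums of 20 were higher in set 1 and of 7 in set 2, while 69% of all genes with regions had the higher sum in set 1. The ryanodine receptor genes, for the calcium release channels that muscle calcium channels act on, went both ways. Ryr3 (199 regions) and Ryr1 (28) stood at 1.37-fold (1.28 to 1.43) and 1.4-fold (1.32 to 1.53) in set 1. All 28 regions of Ryr2, the cardiac form, were higher in set 2, with sums of 1303, 1336 and 1163 against 2134, 2513 and 2242 (1.81-fold, 1.6 to 2.16). Fgf12, for an intracellular factor that binds sodium channel alpha subunits, had 123 of 126 regions higher in set 2 and stood at 1.71-fold (1.54 to 1.99). Unc79, of the sodium leak channel complex, overlapped, with 11859, 12010 and 11163 against 11317, 12010 and 11246. The leak channel gene Nalcn itself and all 3 inositol trisphosphate receptor genes carried 0 regions.

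Potassium and ligand-gated channel genes gave other counts, set here side by side without a test. Of 92 potassium channel genes 68 carried a region (73.9%), and of 59 ligand-gated channel genes 39 (66.1%), against 32.7% of all genes. Regions higher in set 1 made up 48.0% of the 2215 regions of the first family and 42.0% of the 1210 of the second. The share was 61.7% in the calcium and sodium channel genes and 59.2% over all autosomal regions. The median region had a log2 ratio of -0.25, -0.40 and 0.35 in the 3 families, and 0.41 over all autosomal regions. The summed values differed less between families, at log2 ratios of 0.035, 0.15 and 0.20 in the same order, against 0.19 over all autosomal regions. The families also differ in gene length, with median spans of 34.5, 39.3 and 110 kb, and its part in these counts was not tested.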

How the data were processed

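Per the labels, H3K27me3 chromatin immunoprecipitation libraries (3 per construct) and 1 input per construct were sequenced. The tools were BWA 0.7.17, Trimmomatic 0.36 and CASAVA, and the build GRCm38, per the submitters' processing notes; no source used here names the caller of the regions. The authors deposited 1 table of 265968 regions without a header, each with 3 values per set and a number read as −log10 p. Per-library totals are not in it, so depth is unknown and no count model was fitted. From it the 1995 regions on chromosomes X and Y were left out, and regions were joined to RefSeq gene spans (GRCm38.p6) plus 2 kb with Python 3.11.15 and pandas 2.3.3. Assignments were checked gene by gene for 300 genes (0 differed). Members and gene lists were chosen with earlier results of these data known. The largest region was described for up to 4 members per class with the largest sums, plus the 6 largest ratios per direction; library sums and regions of other members were chosen after their values were seen. Alternatives covered flank, overlap, p, separation, value and length minimums, rescaling, pseudocount and leaving out libraries. The values of 2 members enter the totals but are not reported here one by one.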

Additional observations from a re-analysis of the deposited data

How the results depend on the processing

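The members carrying regions (32, 29 and 26) stayed within 1.5 times under every flank, overlap and p setting tried. Region counts fell by construction under stricter rules: set 1 and set 2 counts were 601 and 306 with separated regions, 280 and 110 at an absolute log2 ratio of at least 1, and 535 and 295 at 500 bp or longer. Rescaling the sets to equal sums lowers the log2 ratios by about 0.19. The log2 ratio became 0.14 for calcium alpha1 (0.34 before), -0.14 for alpha2delta (0.06), 0.82 for calcium beta (1.01), -0.12 for gamma (0.07), -0.16 for sodium alpha (0.03), -0.29 for sodium beta (-0.10) and 0.0055 for all members (0.20). With each library rescaled they were 0.14, -0.14, 0.82, -0.12, -0.16, -0.29 and 0.0058. Rescaling turned the separated members Cacna2d2, Scn3a and Scn8a, to -0.057, -0.025 and -0.093 by set and -0.056, -0.026 and -0.094 by library, and left 14 of 32 members higher in set 1. The median over regions in place of the sum gave 0.48, -0.63, 1.30, 0.28, -0.26, -0.30 and 0.35 in the same order. Without its largest member each class moved, to 0.44 without Cacna1d, -0.13 without Cacna2d4, -0.64 without Cacnb4 (a single region of Cacnb2 remains), 0.13 without Cacng2, -0.018 without Scn8a and 0.029 without Scn4b. Leaving out each library in turn gave 0.19 to 0.22 for all members, turned Cacna1d, Cacng5 and Scn2b, all overlapping, and moved Cacnb2 between -0.91 and -0.087. With separated regions only, 11 member ratios moved by more than the spread over library pairs, 20 by less, and 0 of them changed sign. No paired analysis was possible because the table's columns carry no replicate numbers and no test was run. Pseudocounts changed no direction.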
